A study of Drosophila melanogaster with 46 samples.

Results

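Of 22 head libraries of inc1 and WT flies at Day 27, 7 held RNA of genes that are known from the abdomen, and 15 held almost none. The 7 were chosen by one gene. Ebp encodes an ejaculatory bulb protein that males transfer as part of the mating plug, and a library was called a carrier where Ebp reached 20 CPM, the raw count scaled to a common library total. The carriers were 4 of 12 inc1 libraries and 3 of 10 WT libraries. The study as a whole has 46 libraries, and the other 24 (wakeD2 and WT-old) took no part in the choice.

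Each library came from pooled heads of flies of both sexes, taken at 1 timepoint, every 4 h over 2 cycles of light and dark. inc1 flies carry a mutation of insomniac (inc), a gene needed for normal sleep, wakeD2 flies carry a mutation of wide awake (wake), and both mutants were backcrossed into the isogenic WT strain Canton-S w1118 (iso1CJ). inc1, wakeD2 and WT heads were collected at 27 days of age, and WT-old heads, of the WT strain, at 49 days. There was 1 library per group and timepoint, so libraries of different timepoints served as replicates, and the tests measure the spread between single pools. WT at ZT28 and ZT40 was not analysed here. As a check of the labels, inc had 10.1 ± 1.57 CPM in inc1 (SD, n = 12) and 83.2 ± 13.7 CPM in WT (SD, n = 10), and the groups did not overlap.

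The tissues on either side of the neck of a fly differ widely in what they transcribe. The male abdomen holds the testis, in which sperm form, the accessory glands, which secrete seminal fluid peptides, and the ejaculatory duct and bulb. The midgut secretes trypsins, Jonah proteases, maltases and amylases behind a lining of mucins and chitin-binding peritrophins, the Malpighian tubules produce urine, and the oenocytes make cuticular hydrocarbons. In bulk RNA, more cells of such a type and more RNA per cell cannot be told apart.

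Ebp (FBgn0004181, chromosome 2R, 25175126 to 25176715, minus strand, Release 6 coordinates) had 135, 230, 83.3 and 180 CPM in the inc1 carriers at ZT0, ZT4, ZT32 and ZT44. In the WT carriers at ZT4, ZT36 and ZT44 it had 21.9, 45.1 and 24.3 CPM. In the 15 other libraries it ranged between 0 and 0.127 CPM with a median of 0, which is 11 counts in 335968962. The lowest value inside the threshold was thus 21.9 CPM and the highest outside it 0.127 CPM, with no library between, so a threshold anywhere in that gap selects the same 7 libraries. These values made the split and are given without a test. The other body genes were known from earlier results to accompany it. They went through the edgeR fit below, and their fold changes, calls and adjusted p are given as a description.

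The other 4 marker genes divided the libraries in the same way. CG17097, which the annotation lists on chromosome 2L at 10646415 to 10650152, had 56.6 to 138 CPM in the inc1 carriers, 25.0 to 36.3 CPM in the WT carriers and at most 0.127 CPM in the others. Jon65Aiii and Jon65Aiv encode Jonah serine proteases of the midgut and lie near each other on chromosome 3L (6050757 to 6051690 and 6039155 to 6040135). Jon65Aiii had 51.3 to 135 CPM in inc1 carriers and 22.4 to 23.0 CPM in WT carriers, and Jon65Aiv had 52.7 to 114 CPM in inc1 carriers and 20.7 to 23.2 CPM in WT carriers. In the others they had at most 0.140 and 0.0850 CPM. Mur18B, a mucin-related gene on chromosome X, ranged between 19.3 and 145 CPM in the carriers and between 0 and 0.142 CPM in the others. For each of the 5 genes all inc1 carriers lay above all WT carriers.

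**Figure D1:**
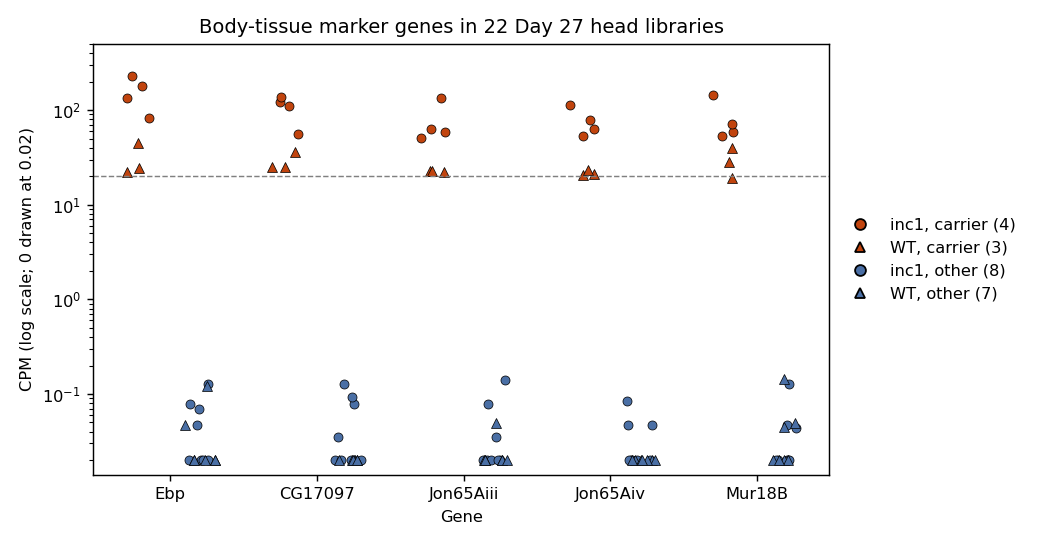
CPM of the 5 marker genes in each of the 22 Day 27 libraries, on a log axis with values of 0 drawn at 0.02. Red symbols are carriers and blue symbols the others, circles are inc1 and triangles WT, and the dashed line marks 20 CPM; the carriers lie at or above 19.3 CPM for every gene and the others at or below 0.142 CPM.

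Carriers were spread over the labels that the rule did not use. They were 4 of 12 inc1 and 3 of 10 WT libraries (two-sided Fisher's exact test, p = 1), 4 of 10 libraries of the second sampling day and 3 of 12 of the first (Fisher's exact test, p = 0.652), and 4 of 11 libraries of light hours and 3 of 11 of dark hours (Fisher's exact test, p = 1). After adjustment over the 3 tests every p was 1. ZT4 and ZT44 were carriers in both genotypes. Total counts averaged 22787727 ± 3960041 in carriers (SD, n = 7) and 22397931 ± 3710506 in the others (SD, n = 15), a difference within the spread (exact permutation test over 170544 splits, two-sided, p = 0.826). At least 1 CPM was reached by 9811 to 11164 genes in a carrier, against 9317 to 9467 genes in another library.

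How much body RNA a carrier held was described by the 6049 genes with less than 0.1 CPM over the pooled counts of the 15 others, called low genes here. In the inc1 carriers these took 0.633% (ZT0), 1.05% (ZT4), 0.335% (ZT32) and 0.428% (ZT44) of all counts. In the WT carriers they took 0.160% (ZT4), 0.181% (ZT36) and 0.142% (ZT44). In the others they took 0.00863% to 0.0122%. The group of low genes was set on the others, so only the levels in carriers are free to vary: 613 to 1242 low genes reached 1 CPM in an inc1 carrier, 276 to 367 in a WT carrier, and 209 did so in all 7. All body lists together, head-expressed members included, averaged 0.148 percentage points more of the counts in carriers than in others, with an SD of 0.141 among carriers.

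Genes were compared between carriers and others with edgeR's quasi-likelihood test, with genotype as covariate and Benjamini-Hochberg adjustment over 10848 genes with at least 1 CPM in 3 or more libraries. Of these, 1254 were higher in carriers (11.6%) and 1 was lower (0.00922%). With a replicate block by timepoint 973 were higher and 14 lower. The median log2 fold change of all tested genes was -0.01. Of the 1254 genes, 758 were low genes. All low genes that passed the filter did so through the carriers and had to differ, so their calls are given below as a description and apart from those of members with a level in the others. A further 350 were of 657 tested genes with 0.1 to 1 CPM in the pooled others (53.3%). At 1 to 5 CPM 111 of 1288 were higher (8.62%), and at 5 CPM or more 35 of 8145 (0.430%). Some genes at 0.1 to 1 CPM also passed the filter only with the carriers, so calls of list members at that level are description too. The median log2 fold change of the 1254 was 5.38, with 682 above 5 and 92 below 1.

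The higher genes came from all large chromosome arms: 297 of 1997 tested genes on 2L (14.9%), 243 of 2187 on 2R (11.1%), 252 of 2074 on 3L (12.2%), 312 of 2659 on 3R (11.7%) and 137 of 1704 on X (8.04%). None of the 13 tested mitochondrial genes was among them. They included 26 of 399 non-coding RNA genes, and 1151 of the 1254 were outside the lists.

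**Figure D2:**
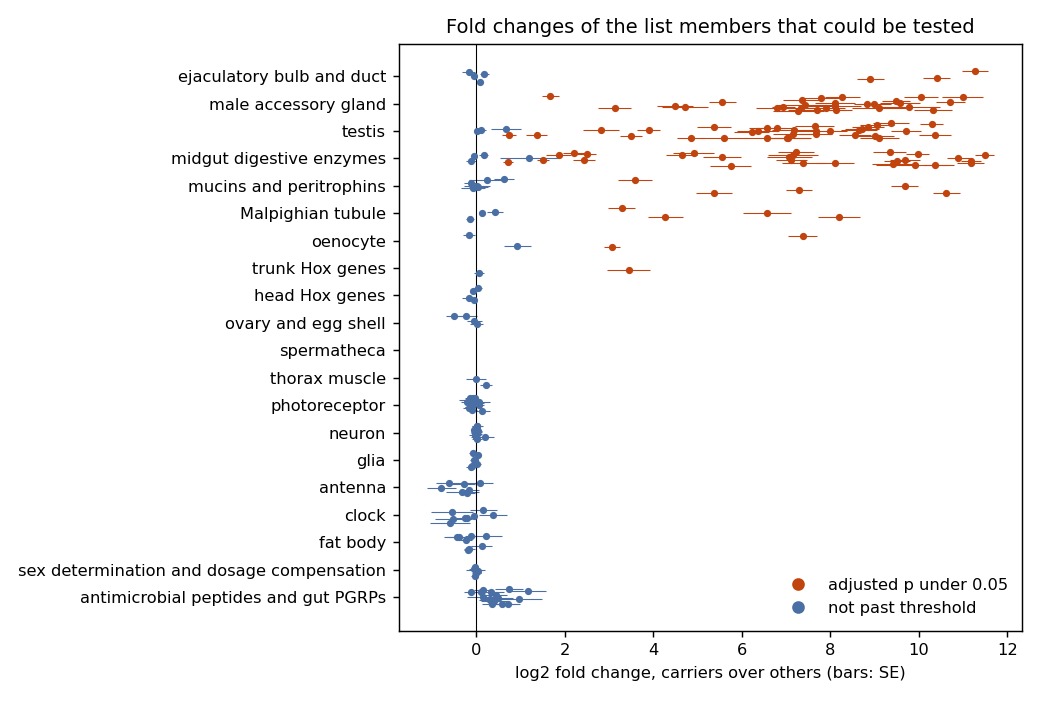
Log2 fold change of carriers over others for each list member that could be tested, by list, with bars for the SE of the edgeR fit. Red points had an adjusted p under 0.05 and blue points did not; red points occur in the male tract, gut, tubule, oenocyte and trunk Hox lists (log2 fold changes up to 11.49), and members of the head lists lie between -0.79 and 1.16.

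Of the male tract, the ejaculatory bulb and duct list divided. Besides Ebp, EbpII, a related bulb protein gene, and Dup99B, a ductus peptide gene that acts on the mated female, were higher. Ebp made the split, and all 3 are low genes, whose calls the filter fixed. EbpII had 31.3 to 98.5 CPM in inc1 carriers, 6.94 to 15.9 CPM in WT carriers and at most 0.0489 CPM in the others. Dup99B had 1.28 to 8.86 CPM in carriers and at most 0.0466 CPM in the others. The remaining 4 members are transcribed in heads too and did not pass the test. EbpIII had 1114 to 2614 CPM in carriers and 857 to 2700 CPM in the others, and Est-6 (esterase 6) had 390 to 508 CPM in carriers and 344 to 558 CPM in the others. For Obp56g and Gld the groups overlapped as well.

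Of the accessory gland list, 29 members were measured and 28 tested, with a median log2 fold change of 8.00. Of the tested members 24 were low genes, whose calls the filter fixed. The 4 at 0.1 CPM or more in the pooled others (Acp63F, antr, lectin-46Ca and lectin-46Cb) were higher in carriers too. Among all tested genes, 53.3% were higher at 0.1 to 1 CPM in the pooled others and 8.62% at 1 to 5 CPM. Acp63F, antr and lectin-46Ca had at most 0.280, 0.245 and 0.216 CPM in the others, so they also passed the filter only with the carriers. Of the 29, 27 did not overlap between the groups, against 955 of all 10848 tested genes. Its low members summed to 169 to 566 CPM in inc1 carriers, 45.1 to 96.3 CPM in WT carriers and at most 0.892 CPM in the others. Acp36DE, a glycoprotein needed for sperm storage in the female, had 79.5, 82.9, 29.2 and 69.9 CPM in the inc1 carriers at ZT0, ZT4, ZT32 and ZT44, and 5.58, 15.3 and 12.8 CPM in the WT carriers at ZT4, ZT36 and ZT44. The others had 0 to 0.145 CPM of it, without overlap. Mst57Db, a peptide gene of the gland, had 17.1 to 88.5 CPM in inc1 carriers, 2.43 to 9.71 CPM in WT carriers and at most 0.0489 CPM in the others.

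SP, the sex peptide that lowers remating and raises egg laying in females, had 0.479 to 7.65 CPM in carriers and no count in the 15 others, where 3 counts would be 0.00893 CPM, so it was at least 381-fold higher in the pooled carriers. Mst57Dc, another peptide gene of the gland, was at least 846-fold higher on the same scale. The smallest fold change was that of lectin-46Cb, with 3.39 to 14.7 CPM in carriers and 0.871 to 2.43 CPM in the others. Acp53C14c was too low to test, and Acp76A had no count in the WT carrier at ZT4.

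Of the testis list, 43 members were measured and 35 tested, with a median log2 fold change of 7.04. Of these, 26 were low genes, whose calls the filter fixed, and 6 of the 9 others were higher (Mst77F, fzo, twe, betaTub85D, r-cup and S-Lap1). Mst77F, fzo and r-cup lay at 0.1 to 1 CPM in the pooled others, where 53.3% of all tested genes were higher. The level of twe, betaTub85D and S-Lap1 was 1 to 5 CPM, where 8.62% were. fzo and r-cup, at most 0.720 and 1.09 CPM in the libraries without Ebp, also passed the filter only with the carriers. The low members summed to 221 to 885 CPM in inc1 carriers, 76.5 to 133 CPM in WT carriers and at most 2.42 CPM in the others. loopin-1 and the S-Lap genes encode leucyl aminopeptidase-related proteins of sperm. loopin-1 had 69.8, 126, 28.9 and 32.7 CPM in the inc1 carriers in order of time, and 19.3, 20.4 and 8.84 CPM in the WT carriers, against at most 0.290 CPM in the others. S-Lap7 had 9.38 to 105 CPM in carriers and at most 0.117 CPM in the others. The S-Lap genes are similar in sequence and may share reads.

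Genes of late sperm formation were among those higher. The protamine genes ProtA and ProtB, which encode the proteins that replace histones in sperm, had 0.598 to 5.11 CPM and 1.18 to 9.18 CPM in carriers, and at most 0.0390 CPM and 0.149 CPM in the others. dj (don juan), a sperm tail protein gene, had 2.65 to 26.2 CPM in carriers and at most 0.0781 CPM in the others. Several regulators of the meiotic transcription programme, namely can, sa, aly, comr, tomb and nht, stayed below 1 CPM in every carrier and were not tested. At these low levels sa and aly did not overlap between the groups, and can, comr, tomb and nht did. The regulators topi and mia were tested and did not pass (log2 fold changes 0.67 and 0.03). bol (boule), a gene of male meiosis, had 167 to 255 CPM in carriers and 143 to 301 CPM in the others and did not pass (adjusted p = 1, edgeR).

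Of the midgut list, 50 members were measured and 31 tested, with a median log2 fold change of 7.12. Of these, 20 were low genes, whose calls the filter fixed, and 7 of the 11 others were higher (Jon74E, Mal-A1, Mal-A2, Mal-A6, Amy-p, Amy-d and mag). Among all tested genes, the share higher was 53.3% at 0.1 to 1 CPM in the pooled others. It was 8.62% at 1 to 5 CPM and 0.430% at 5 CPM or more. Jon74E, at most 0.689 CPM in the libraries without Ebp, also passed the filter only with the carriers. The low members summed to 285 to 664 CPM in inc1 carriers, 118 to 134 CPM in WT carriers and at most 1.26 CPM in the others. alphaTry, a trypsin, had 64.5, 107, 36.7 and 32.9 CPM in the inc1 carriers in order of time, 25.1, 20.5 and 13.8 CPM in the WT carriers and at most 0.0850 CPM in the others. yip7, a serine protease, had 11.6 to 76.9 CPM in carriers and at most 0.0489 CPM in the others.

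Genes of sugar-digesting enzymes were also transcribed in the others. Amy-p, an amylase, had 16.6 to 56.6 CPM in carriers and 2.77 to 11.8 CPM in the others, without overlap. Its neighbour Amy-d overlapped, at 47.9 to 75.5 CPM in carriers and 23.6 to 49.7 CPM in the others (log2 fold change 0.72 ± 0.11), and with the replicate block it did not pass (0.51 ± 0.16, adjusted p = 0.0767, edgeR). Mal-A1, a maltase, had 20.8 to 52.4 CPM in carriers and 7.62 to 14.3 CPM in the others. Mal-A5 and Mal-B2 did not pass: Mal-B2 had 174 to 287 CPM in carriers and 158 to 309 CPM in the others. Of the 50 members, 13 were below 1 CPM in every carrier.

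The gut genes did not come in one fixed mix. In the WT carrier at ZT36, Jon99Cii, Jon99Ci and Jon99Ciii had 0.0483, 0.242 and 0.242 CPM, whereas in the 6 other carriers their lowest values were 1.08, 1.72 and 3.59 CPM. The same library had 10.3 CPM of LysX, a digestive lysozyme, which was at most 0.156 CPM in the 6 other carriers, and 1.11 CPM of Jon66Ci, at most 0.312 CPM there. It also had 1.45 CPM of Npc1b, a sterol transporter gene of the gut, against at most 0.442 CPM in the 6 other carriers. These genes were singled out after their values were seen.

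Of the mucin and peritrophin list, 5 of 11 tested members were higher (22 measured), with a median log2 fold change of 0.63, and 4 of the 5 were low genes. The filter fixed the calls of those 4, and 1 of the 7 other tested members was higher, beside 11.6% of all tested genes. Muc68D had 13.1 to 96.9 CPM in carriers and at most 0.158 CPM in the others, and Muc11A had 4.30 to 33.9 CPM in carriers and at most 0.135 CPM in the others. Mur29B and Peritrophin-15a were higher too, at up to 2.89 and 5.43 CPM in carriers. Mur2B is present in heads and did not pass, with 62.2 to 154 CPM in carriers and 64.9 to 166 CPM in the others.

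Of the Malpighian tubule list, 4 of 7 tested members were higher (8 measured), with a median log2 fold change of 3.28, and 3 of the 4 were low genes. The filter fixed the calls of those 3, and 1 of the 4 other tested members was higher, beside 11.6% of all tested genes. salt, a tubule transporter gene, had 0.725 to 9.68 CPM in carriers and at most 0.0474 CPM in the others. Uro, which encodes urate oxidase and is a classic tubule gene, had 0.160 to 2.58 CPM in carriers and at most 0.0497 CPM in the others, without overlap. Lkr, the leucokinin receptor, CapaR, the capa receptor, and Oatp58Dc did not pass.

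Of the oenocyte list, 2 of 4 tested members were higher (6 measured). Among all tested genes, 8.62% were higher at 1 to 5 CPM in the pooled others and 0.430% at 5 CPM or more. Cyp4g1 encodes the P450 that completes cuticular hydrocarbons and is a standard oenocyte marker. It had 471, 1094, 685 and 586 CPM in the inc1 carriers in order of time and 291, 184 and 285 CPM in the WT carriers. The others had 0.976 to 4.61 CPM. FASN2, a fatty acid synthase of oenocytes, had 16.0 to 61.7 CPM in carriers and 2.29 to 4.08 CPM in the others. FarO overlapped between the groups (1.28 to 5.38 CPM in carriers, 0.373 to 3.51 CPM in the others, adjusted p = 0.0556, edgeR). It was past the threshold under 7 alternatives, among them DESeq2 (adjusted p = 0.0338), library totals alone (adjusted p = 0.0453) and time of day in the model (adjusted p = 0.00441). Desat1, the remaining tested member, did not pass (log2 fold change -0.17), with at most 3655 CPM in carriers and 4988 CPM in the others. The female hydrocarbon genes eloF and Fad2 were at most 0.234 and 0.934 CPM in carriers and were not tested.

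Hox genes mark position along the body. Abd-B, which specifies the posterior abdomen and genitalia, had 1.38, 2.58, 1.35 and 1.52 CPM in the inc1 carriers and 0.359, 0.193 and 1.03 CPM in the WT carriers, against 0 to 0.475 CPM in the others. It was higher by the test (log2 fold change 3.44 ± 0.48), with 5 of 7 carriers above all others, and is a low gene that passed the filter through the carriers. It was not past the threshold in WT libraries alone (2.34 ± 0.75, adjusted p = 0.0878, edgeR), with the replicate block (2.77 ± 1.08, adjusted p = 0.189) or at an Ebp threshold of 100 CPM (2.81 ± 1.07, adjusted p = 0.128). abd-A and Ubx, of the anterior abdomen and the posterior thorax, were not tested: abd-A had 0.239 to 1.44 CPM in carriers and at most 0.895 CPM in the others, and Ubx had 0.242 to 2.23 CPM in carriers and 0.0864 to 0.653 CPM in the others. Antp, a thoracic Hox gene, had 2.90 to 4.49 CPM in carriers and 2.69 to 4.51 CPM in the others (log2 fold change 0.06 ± 0.12, adjusted p = 1, edgeR). None of the head Hox genes lab, pb, Dfd and Scr passed (adjusted p of 0.849 or more, edgeR).

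Few female tract and thorax genes could be tested. Of the ovary and egg shell list, 0 of 4 tested members passed and 19 of 24 measured members were below 1 CPM in every carrier, the highest value of any member being 2.27 CPM in a carrier and 2.20 CPM in another library. The low ovary members summed to 0.479 to 1.75 CPM in carriers and 0 to 0.700 CPM in the others, with overlap. The 4 spermatheca genes were at most 0.0460 CPM in carriers and 0.0900 CPM in the others. The flight muscle actin Act88F had 1.23 to 4.55 CPM in carriers and 1.14 to 4.35 CPM in the others (log2 fold change -0.00 ± 0.23, adjusted p = 1, edgeR), and of the thorax muscle list 0 of 2 tested members passed.

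Head genes, which the rule did not use, were tested in the same fit. Among 91 tested members of the head lists (head Hox, photoreceptor, neuron, glia, antenna, clock, fat body, sex determination and antimicrobial peptide genes), 0 were higher and 0 lower by edgeR's adjusted p. Of the 91, 84 had 5 CPM or more in the pooled others, a level at which 35 of 8145 tested genes were higher (0.430%), so the count is near the background. The unadjusted p was under 0.05 for 4 members by edgeR and 6 by DESeq2, which gave 0 adjusted calls. With the replicate block 5 were called, Obp83b (-1.66 ± 0.40) and takeout (-0.31 ± 0.08) lower and CecA1 (1.60 ± 0.34), Mtk (0.81 ± 0.22) and PGRP-SC2 (2.48 ± 0.72) higher on the log2 scale. In WT alone CecA1, CecB and CecC were higher, with no filter PGRP-SC1a was, and without the inc1 carrier at ZT44 Obp83b was lower (-1.04 ± 0.29). The median log2 fold changes were -0.29 for 7 antenna genes, -0.24 for 8 clock genes, -0.17 for 8 fat body genes, -0.11 for 19 photoreceptor genes, -0.05 for 7 glia genes and 0.01 for 16 neuron genes. ninaE, the major rhodopsin, had 31834 to 39230 CPM in carriers and 30617 to 41689 CPM in the others (log2 fold change -0.10 ± 0.07, adjusted p = 0.806, edgeR). The synaptobrevin gene nSyb had 1087 to 1772 CPM in carriers and 988 to 2323 CPM in the others (log2 fold change -0.03 ± 0.13, adjusted p = 1, edgeR). By these markers, head RNA was present in all 22 libraries, as labelled.

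Genes that report the sexes in the pools were alike in level. roX1, an RNA of the male dosage compensation complex, had 444 to 789 CPM in carriers and 450 to 864 CPM in the others (log2 fold change 0.03 ± 0.08, adjusted p = 1, edgeR). roX2, msl-2, dsx, tra and Sxl had log2 fold changes between -0.05 and 0.00 and did not pass. The yolk protein genes Yp1, Yp2 and Yp3, made in female fat body, did not pass either: Yp1 had 17603 to 42189 CPM in carriers and 22057 to 47908 CPM in the others. A p that misses the threshold does not show that the sex ratio was equal.

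Antimicrobial peptide genes, which respond to infection in gut and fat body, had a median log2 fold change of 0.38. In the main edgeR fit 0 of 16 tested members were past the threshold, and calls of other fits are given above. PGRP-SC2, a peptidoglycan-degrading protein of the gut, had the largest, at 3.63 to 10.4 CPM in carriers and 0.831 to 16.2 CPM in the others (log2 fold change 1.16 ± 0.42, adjusted p = 0.0986, edgeR).

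Of the 10 genes with the largest fold changes, 4 were in none of the tissue or marker lists. Sfp60F and Sfp87B encode seminal fluid proteins: Sfp60F had 4.03 to 52.2 CPM in carriers and 1 count in all others together, and Sfp87B had 6.90 to 73.4 CPM in carriers and 3 counts in the others. Sfp60F lies on chromosome 2R at 25172245 to 25172695, with EbpII between it and Ebp. CG34324 had 15.2 to 122 CPM in carriers and at most 0.140 CPM in the others. CG31198 had 6.44 to 23.0 CPM in carriers and no count in the others, and was at least 1340-fold higher in the pooled carriers. The 4 other genes of smallest p outside the lists, CG43101, CG31872, CG2267 and CG10911, each had all 7 carriers above all others. The 1 lower gene was Cyp6t1, a P450 gene on chromosome X, with 12.2 to 15.9 CPM in carriers and 12.0 to 22.01 CPM in the others (log2 fold change -0.30 ± 0.09, adjusted p = 0.0343, edgeR). It lost its call with the replicate block (-0.18 ± 0.15, adjusted p = 0.782, edgeR) and without 4 of the 7 carriers in turn, the inc1 ones at ZT0, ZT4 and ZT44 and the WT one at ZT44, at adjusted p of up to 0.126.

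The mix of tissues was compared among carriers through the share of the low-gene counts that each list took. Testis genes took 6.50% to 8.46% in inc1 carriers and 5.39% to 7.62% in WT carriers. Accessory gland genes took 5.05% to 7.44% in inc1 carriers and 2.82% to 5.31% in WT carriers. Midgut enzymes took 6.35% to 9.44% in inc1 carriers and 6.61% to 8.35% in WT carriers. Over the 7 carriers the share spanned 3.03-fold for the ejaculatory bulb and duct, 2.64-fold for the accessory gland, 2.50-fold for mucins, 1.57-fold for the testis and 1.49-fold for midgut enzymes. Cyp4g1 per Ebp was 3.25 to 8.22 in inc1 carriers and 4.07 to 13.2 in WT carriers. Testis sum over accessory gland sum was highest in the WT carrier at ZT4, at 2.70, where the 6 other carriers had 0.924 to 1.57.

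The carrier effect was larger in inc1 than in WT for 23 of 10848 genes (0.212%) by edgeR's test of the interaction, and smaller for 0, with 696 genes at an unadjusted p under 0.05 in either direction. All 23 were among the 1254 higher genes. For 1187 of the 1254 the fitted difference was positive (median 1.67 on the log2 scale). The smallest p was that of CG6283 (interaction 3.84 ± 0.54, adjusted p = 0.00411, edgeR), with means of 4.60 CPM in inc1 carriers and 3.07 CPM in WT carriers. For Alp10, next by p (interaction 3.64 ± 0.60), these means were 2.03 and 2.30 CPM. The interaction also depends on the others of each genotype, so it need not mean a higher level in inc1 carriers. The count of 23 rested on single libraries: without the WT carrier at ZT4, and likewise without that at ZT36, 1 gene was called, and without the inc1 carrier at ZT32 115 were.

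The carriers bear on the comparison of inc1 with WT, which was fitted over the same 22 libraries. With the carrier term, 2786 of 10848 genes differed (25.7%), 1708 higher and 1078 lower in inc1, and 806 of the 2786 were also genes higher in carriers, 797 of them higher in inc1. With a replicate block by timepoint beside the carrier term 3709 differed, 2095 higher and 1614 lower in inc1. Without the carrier term and the block 1815 genes differed, 27 of them higher in carriers. With the 7 carriers left out 1294 genes differed, 608 higher and 686 lower in inc1, 66 of them higher in carriers, and 1229 of the 1294 were also called with the carrier term and no block. The larger body signal of the inc1 carriers and the genotype cannot be separated by a term that only marks presence.

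Libraries of the 2 groups that the rule did not use were set beside these. Ebp was at 20 CPM or more in 11 of 12 wakeD2 libraries, at 38.3 to 800 CPM, and at 0 in the wakeD2 library of ZT36. It was so in 1 of 12 WT-old libraries, at 50.5 CPM (ZT32), and at most 0.114 CPM in the 11 others of that group. The low genes took 0.211% to 2.66% of the counts in the 11 wakeD2 libraries and 0.0111% in that of ZT36. They took 0.249% in WT-old at ZT32 and 0.0105% to 0.0167% in the 11 others of the group. Of the 1254 genes higher in carriers, 1072 to 1252 lay above all 15 Day 27 libraries without Ebp in each of the 11 wakeD2 libraries, and 1144 did so in WT-old at ZT32. Of the libraries with little or no Ebp, 69 did so in wakeD2 at ZT36 and 95 to 214 in the 11 others of WT-old.

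**Figure D3:**
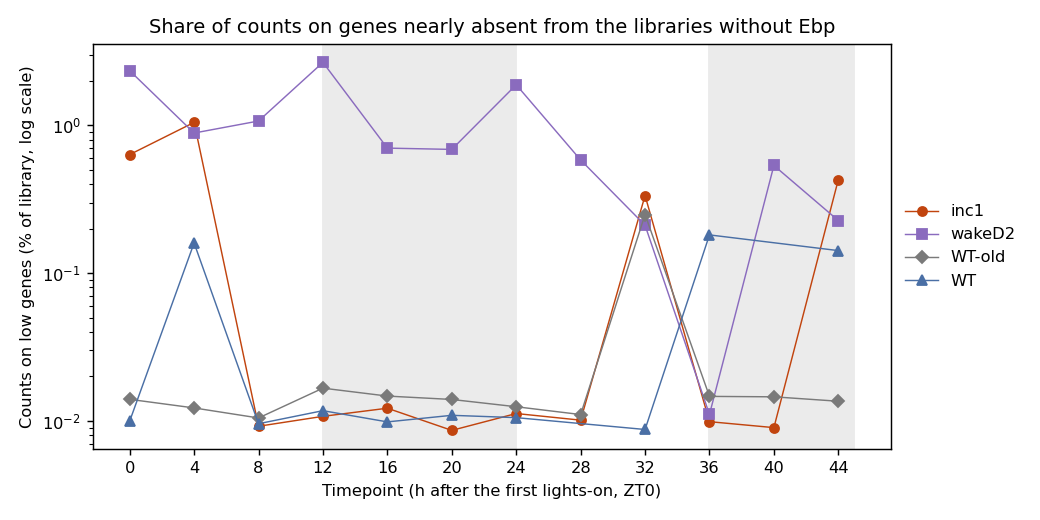
Share of each library's counts, in percent on a log axis, that fell on the 6049 genes nearly absent from the 15 libraries without Ebp, by timepoint and group, with dark hours shaded. Libraries with body genes stand at 0.142% or more and all others at 0.0167% or less; wakeD2 is high at 11 of 12 timepoints, and WT at ZT28 and ZT40 was not analysed.

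Among the 11 wakeD2 libraries the tissue sums followed Ebp. Unless low genes are named, these sums took all measured members, head-expressed ones included. The accessory gland sum ranged between 76.8 and 2517 CPM and rose with Ebp on a log2 scale (Pearson r = 0.974, Spearman rho = 1; permutation p = 1e-05 each, the smallest that the resamples can give; adjusted over 5 lists p = 5e-05; r = 0.955 without the 2 libraries farthest from the median of Ebp). For the testis sum r was 0.918 and rho 0.845 (permutation p = 0.00017 and 0.002, adjusted 0.00028 and 0.0033, r without the 2 libraries 0.843). For midgut enzymes r was 0.948 and rho 0.900 (permutation p = 2e-05 and 0.0003, adjusted 5e-05 and 0.00075, r without the 2 libraries 0.899). The midgut sum kept the markers Jon65Aiii and Jon65Aiv, which were already known to go with Ebp. Over all wakeD2 libraries their medians were 92.3 and 84.9 CPM, beside a median of 977 CPM for the sum. The sum was 411 CPM at ZT36, where Ebp was 0. Its low members alone, with these 2 markers, had a median of 519 CPM. For the ejaculatory bulb and duct without Ebp r was 0.826 and rho 0.718 (permutation p = 0.0022 and 0.016, adjusted 0.0028 and 0.02, r without the 2 libraries 0.672). This sum ranged between 1818 and 3392 CPM, and it was 2923 CPM at ZT36, where Ebp was 0. For its members that are low genes r was 0.983, and 0.970 without the 2 libraries (permutation p = 0.00011). For mucins without Mur18B r was 0.707 and rho 0.682 (permutation p = 0.018 and 0.025, adjusted 0.018 and 0.025), and r without the 2 libraries was 0.413 (permutation p = 0.27), so the relation of this sum rests on those libraries. For the mucin members that are low genes r was 0.929, and 0.870 without the 2 libraries (permutation p = 0.0023). All sums of a library share its depth and its total.

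**Figure D4:**
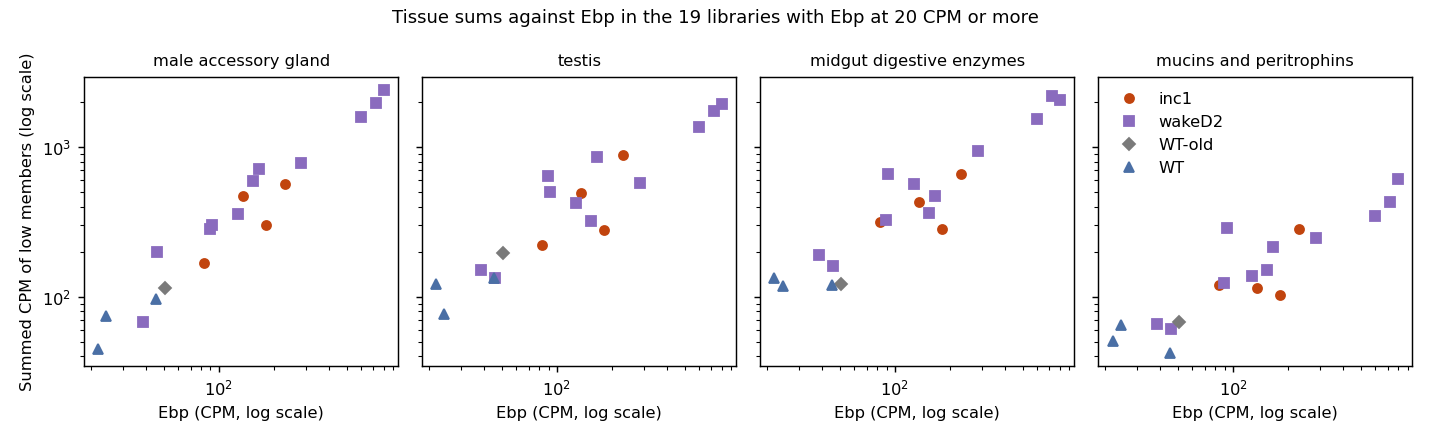
Summed CPM of the list members that are low genes against CPM of Ebp, both on log axes, in the 19 libraries with Ebp at 20 CPM or more, with 1 panel per tissue list. Points are single libraries of inc1, wakeD2, WT-old and WT; the accessory gland sum runs from 45.1 CPM in the WT library of ZT4 to 2400 CPM in wakeD2 at ZT12.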

How the data were processed

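RNA of fly heads was sequenced from stranded poly(A) libraries. The submitters' processing notes name bcl2fastq 2.20, STAR 2.4.2a and featureCounts on Release 6 of the genome. The authors deposited raw read counts per gene, not normalized, for 17490 genes in 46 libraries, all of which were mapped to samples by name. Strand and multimapping settings of the counting are not given in the sources used here, so near-identical genes (the Jonah, trypsin, amylase and S-Lap clusters) and overlapping genes may share reads. Symbols and coordinates came from an Ensembl annotation of the same assembly, in which 17288 IDs matched and 202, with 1.96% of the counts, did not.

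Totals ranged between 12630462 and 28906177 counts in the 22 libraries compared. Intervals and floors (3 counts) cover counting error only. No pair of libraries was a copy: the chi-square per degree of freedom was at least 11.2 in inc1 and 6.32 in WT. Genes with 1 CPM in 3 or more libraries were fitted with edgeR 4.0.16 (R 4.3.3, TMM, quasi-likelihood test, genotype as covariate) and called at a Benjamini-Hochberg adjusted p under 0.05. DESeq2 1.42.0 was an alternative, beside other scalings, filters, thresholds of Ebp, time of day, a block by timepoint and leaving out each carrier. On simulated counts of 9665 genes for carriers against others, the fit recovered 94.1% of genes raised by 0.5 and 79.4% of genes lowered by 0.5 on the log2 scale, and all at 1 and 2, with 8 false calls of 199. The simulated counts had a single fixed dispersion and no effect of genotype or time of day. Only genes with at least 1 CPM in 3 or more of the others were changed. These rates therefore do not give the power for genes that vary more in the data. WT and inc1 libraries of the same timepoint deviated together once means were taken within carriers and others (r = 0.20 to 0.53 over 10 timepoints), so the timepoints pair them, and values with a replicate block by timepoint stand beside the results they change. The interaction, and the genotype fits without the carrier term or without carriers, were not run with the block. Genes were named by rule: the 5 markers, up to 4 members of each list by mean CPM, all Hox and sex determination genes, the 10 largest changes in each direction and the 5 of smallest p outside the lists. Other list members named were chosen after their values were seen. The libraries and gene lists were chosen with earlier results of these data known.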

Additional observations from a re-analysis of the deposited data

Results flagged for a closer look

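Single libraries stood apart within their groups in 16 of 122 groups of 4 to 10 values examined by Dixon's test, where chance gives about 1 in 20. Of these, 14 were the inc1 carrier at ZT4. It was the highest for Mur18B (145 CPM), Jon65Aiii (135 CPM), Muc68D (96.9 CPM), Muc11A (33.9 CPM) and the sum of the low mucin genes (283.5 CPM). It was also the highest for FASN2 (61.7 CPM), Abd-B (2.58 CPM) and abd-A (1.44 CPM). Several of these are the same library counted among the 4 inc1 carriers and again among all 7.

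TpnC4, a troponin C gene of flight muscle, was highest in the inc1 carrier at ZT32, at 0.830 CPM. Among the inc1 libraries without Ebp, that of ZT8 had the lowest total, 12630462 counts.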

How the results depend on the processing

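The 1254 genes higher in carriers became 2756 with no filter, 130 with 1 CPM required in 12 libraries and 503 with an Ebp threshold of 100 CPM, which moves 4 carriers to the others. Leaving out 1 carrier gave 1210 to 1269. The count of lower genes, 1, was 0 with library totals alone, 0 with the 12-library filter and 0 in WT alone, 3 by DESeq2, 22 with time of day, 23 with no filter, 23 in inc1 alone and 40 at 100 CPM, and 1 to 32 without single libraries, 32 being without the shallowest (inc1, ZT8; chosen after seeing the data). Genes between inc1 and WT numbered 4440 with time of day, 1815 without the carrier term and 1294 without carriers, against 2786. Genes with unlike carrier effects numbered 179 with time of day and 1 to 115 without single carriers, against 23. The p for total counts was 0.603 at 100 CPM, with the sign of the difference turned. The mucin relation in wakeD2 had r = 0.413 without 2 libraries. The causes were not tested. The replicate block gave 973 higher, 14 lower and 3709 genotype genes, and of the named genes it changed the calls given beside them in the report. Deviations from genotype means alone correlated at 0.70 to 0.93 at 7 timepoints and at -0.47 to -0.69 at the 3 where 1 genotype was a carrier. Of 595 alternative values for 31 named genes with a call, 557 kept it, 38 lost it and 0 reversed. Of 1158 for 58 named genes without one, 13 gained it. The median log2 fold change of all genes stayed between -0.02 and 0.03. Depth limits genes under about 1 CPM.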

Other observations

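The WT-old library of ZT32 held most genes of the Day 27 carriers, with exceptions that were singled out after their values were seen. It had 52.0 CPM of Mur18B and 12.2 CPM of Muc11A, but no count of Muc68D, which had 13.1 to 96.9 CPM in the 7 carriers, and 0.0915 CPM of CG34324, which had 15.2 to 122 CPM there. Its Amy-d level was 119 CPM, against 47.9 to 75.5 CPM in the carriers.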
